A study of Mus musculus with 59 samples.

Results

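The expression of 8 genes of the Bcl2 family was analyzed in immature B cells of the mouse bone marrow. The 8 genes were chosen by name, for their known roles in the survival of B cells, from 24728 genes with an mRNA value in all 5 mRNA-seq libraries, and all 8 were detected in every library. They are the antiapoptotic genes Mcl1, Bcl2l1 (which codes for Bcl-xL) and Bcl2, the BH3-only genes Bmf, Bcl2l11 (which codes for Bim) and Bbc3 (which codes for Puma), and the effector genes Bak1 and Bax.

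The study examined how the PAIR4 element and the neighbouring V8.7E element activate recombination of distal VH genes at the Igh locus. Immature IgMb B cells were sorted as B220+ IgM+ IgD- cells from mice that carried the mutant Igh allele on a B6 chromosome and, by the study's methods, an unmutated Igh allele of strain 129. The 2 control libraries came from cells with the Δ890 allele, which lacks 890 kb of the distal VH gene cluster with all PAIR elements. The 3 P4V libraries came from cells in which PAIR4 and V8.7E had been inserted at the deletion point of that same allele, so that the 890-kb deletion is common to all 5 libraries and no unmutated control was analysed here. The labels give the P4V cells as homozygous, whereas the methods describe heterozygous mice with the 129 allele. The lox sites of the Δ890 allele were targeted in ES cells and the deletion was then made in mice by Cre, whereas the P4V insertion was made in ES cells, and the age of the mice is not given in the sources used here. The comparison thus asked whether survival genes outside Igh differed between B cells that arose from the allele with the inserted element and B cells that arose from the allele without it.

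Proteins of the Bcl2 family decide whether the outer mitochondrial membrane of a stressed cell stays closed. Bax and Bak form the pores that release cytochrome c, antiapoptotic proteins such as Bcl-2, Bcl-xL and Mcl-1 hold them in check, and BH3-only proteins such as Bim, Puma and Bmf bind the antiapoptotic proteins or the effectors through a short helix, the BH3 domain. Immature B cells are the stage at which B cells with an autoreactive receptor are deleted, and Bim is known for its part in this deletion, while Mcl-1 and Bcl-xL are known to be needed at several steps of B cell development. As these proteins act by binding each other, the relative amounts of the members are of interest beside their levels.

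The segment that all 8 proteins share is the core of the BH3 domain, and its coding bases are shown here because the binding between the 3 classes of protein runs through it. A core of 8 residues was searched, namely leucine, any pair of residues, an aliphatic residue or methionine or alanine, a glycine or alanine, aspartate, any residue, and an aliphatic residue or phenylalanine or methionine. It was found once in each of the 8 proteins translated from GENCODE transcripts of the mouse assembly NCBIM37, and in 622 of 21370 genes with a complete coding sequence (2.91%), so that the match alone does not define a BH3 domain. In the following lines, read 5′ to 3′ on the coding strand, capitals mark the codons of the leucine, of the small residue and of the aspartate.
Mcl1: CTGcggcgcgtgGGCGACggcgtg
Bcl2l1: CTGagagaggcaGGCGATgagttt
Bcl2: CTCcgccgggctGGGGATgacttc
Bmf: CTTcagtgtattGCAGACcagttc
Bcl2l11: CTGcggcggatcGGAGACgagttc
Bbc3: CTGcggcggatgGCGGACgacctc
Bak1: CTTgctctcatcGGAGATgatatt
Bax: CTCcggcgaattGGAGATgaactg
The small residue was glycine in 6 members and alanine in 2, the BH3-only genes Bbc3 and Bmf. Each core lies within 1 coding exon. On NCBIM37, it is at chr3:95463359-95463382 (plus strand) in Mcl1, at chr2:152655436-152655459 (minus strand) in Bcl2l1 and at chr1:108609155-108609178 (minus strand) in Bcl2. Among the BH3-only genes, it is at chr2:118370839-118370862 (minus strand) in Bmf, at chr2:127972886-127972909 (plus strand) in Bcl2l11 and at chr7:16899122-16899145 (plus strand) in Bbc3. In the effector genes, it is at chr17:27159479-27159502 (minus strand) in Bak1 and at chr7:52721370-52721393 (minus strand) in Bax. None of the 8 genes is on the chromosome of the Igh locus.

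Levels are given in TPM, the share of a gene among all transcripts of a library after correction for gene length, so that genes can be compared with each other. The TPM values were whole multiples of a value for 1 read, from which 25321523 to 27578473 counted reads per library were recovered. The B cell genes Cd79a and Cd79b, which code for the signalling chains of the B cell receptor, were high in all libraries (9495 to 10845 TPM and 5575 to 6035 TPM), and Ighm was at 15339 to 19530 TPM. Cd93, a marker of immature B cells, was at 103 and 116 TPM in the Δ890 libraries and at 87.6, 98.8 and 99.0 TPM in the P4V libraries. Of 9 marker genes of immature B cells, 3 (Cd93, Ebf1 and Pax5) were lower in all P4V libraries, compared with 16.2% of all genes tested, and none passed the test. The part of this in the levels of the members was not tested. Transcripts of other cells were present, however, as the 8 myeloid genes found of 9 listed (S100a8, S100a9 and Lyz2 among them) summed to 1861 to 5869 TPM, with the highest sum in the third P4V library, although the cells had been gated as B220+ IgM+. The 5 erythroid genes found of 9 listed summed to 421 to 472 TPM, of which Alas2 held 362 to 419 TPM. The globin genes Hbb-b1 and Hbb-bs are listed at 0 in all libraries, and the other listed globin genes were not found. The 4 plasma cell genes found of 5 listed summed to 398 and 400 TPM in the first and second P4V libraries. In the others, the sum was 215 to 248 TPM. Igj alone was at 185 and 181 TPM in the first and second P4V libraries and at 32.6 to 65.6 TPM in the others. The 7 T and NK cell genes summed to 5.71 to 8.85 TPM. The sum of 7 pro- and pre-B cell genes was 189 TPM in the second P4V library and 77.2 to 95.4 TPM in the others. Of these 7 genes, 2 (Kit and Vpreb2, at most 2.62 and 3.90 TPM) lay higher in all P4V libraries, compared with 6.94% of all genes tested. None of the 7 lay lower in all P4V libraries, and none passed the test. Xist, which is expressed in female cells, was at 34.2 and 25.6 TPM in the Δ890 libraries and at 18.6, 18.3 and 3.0 TPM in the P4V libraries, without overlap. The Y-linked gene Eif2s3y was at 11.2 and 19.6 TPM in the Δ890 libraries and at 17.6, 25.8 and 38.5 TPM in the P4V libraries, so that every library held transcripts of both sexes, in different proportions. The third P4V library, which also had the least Mcl1, had the least Xist and the most Eif2s3y, and the part of sex in the levels of the members was not tested. In such bulk samples, fewer cells of a type and less RNA per cell cannot be told apart.

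Mcl1 was by far the most abundant member. Its level was 777 and 744 TPM in the 2 Δ890 libraries and 710, 697 and 604 TPM in the 3 P4V libraries. All P4V libraries were below both Δ890 libraries, and the third P4V library was the lowest. Mcl1 ranked 162nd among the 11681 tested genes (mean level of 1 TPM or more) and made up 85.3 to 89.9% of the summed TPM of the antiapoptotic members.

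Bcl2l1 came second among the antiapoptotic members, with 74.5 and 92.7 TPM in the Δ890 libraries and 77.2, 88.4 and 95.2 TPM in the P4V libraries. Bcl2, the founding gene of the family, was much lower, at 12.6 and 8.45 TPM in the Δ890 libraries and 11.9, 9.63 and 8.89 TPM in the P4V libraries. The groups overlapped for both genes. The spread within the groups was wide for both. The coefficient of variation within groups was 20.3% for Bcl2 and 12.4% for Bcl2l1, compared with 3.23% and 2.02% from the counting of 773 to 1109 and 2003 to 2815 reads. In each group, the library with the most Bcl2 had the least Bcl2l1.

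Of the BH3-only members, Bmf, whose product is held at the cytoskeleton in healthy cells, had the highest level. It reached 121 and 132 TPM in the Δ890 libraries and 113, 102 and 130 TPM in the P4V libraries, or 81.0 to 84.7% of the summed TPM of the 3 BH3-only members. Bcl2l11 was at 16.3 and 15.3 TPM in the Δ890 libraries and at 15.7, 15.4 and 13.2 TPM in the P4V libraries. Bbc3, a target of p53, was at 8.03 and 8.65 TPM in the Δ890 libraries and at 10.7, 8.26 and 11.5 TPM in the P4V libraries. The groups overlapped for all 3 genes, for Bbc3 through the second P4V library, which lay between the 2 Δ890 libraries. Bbc3 rests on the fewest reads of the 8 members, 180 to 283 per library, and its counting error alone is 6.67%.

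The effector genes were the steadiest members. Bak1 was at 257 and 275 TPM in the Δ890 libraries and at 279, 264 and 281 TPM in the P4V libraries. Bax was at 192 and 188 TPM in the Δ890 libraries and at 196, 185 and 204 TPM in the P4V libraries. From the lowest to the highest library, Bak1 differed by 1.09-fold and Bax by 1.10-fold, compared with 1.49-fold for Bcl2 and 1.43-fold for Bbc3. In the annotation, exons of Bak1 overlap the antisense gene Ggnbp1 (2.29 to 3.18 TPM) and exons of Bcl2 overlap a noncoding antisense transcript, and whether reads were counted by strand is not given in the sources used here.

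**Figure D1:**
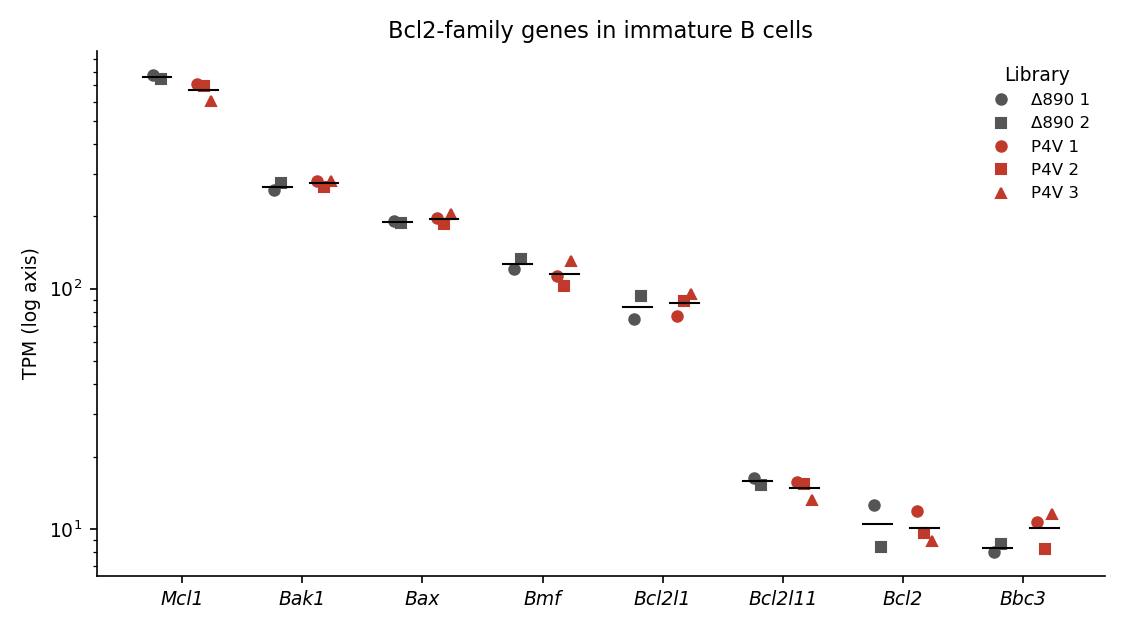
TPM (log axis) of the 8 members in each library, in descending order of the mean, with grey symbols for the 2 Δ890 libraries, red symbols for the 3 P4V libraries and a horizontal line for each group mean. The levels run from 604 to 777 TPM for Mcl1 down to 8.03 to 11.5 TPM for Bbc3, and Mcl1 is the member whose groups do not overlap.

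The order of the members was Mcl1, Bak1, Bax, Bmf, Bcl2l1, Bcl2l11, Bcl2 and Bbc3 by the mean of all 5 libraries. The ranges of neighbours did not overlap down to Bcl2. The last pair could not be separated, since Bcl2 was above Bbc3 in 3 of 5 libraries. Mcl1 exceeded Bak1 by 2.61 ± 0.32-fold (SD, n = 5), Bak1 exceeded Bax by 1.41 ± 0.05-fold, and Bmf exceeded Bcl2l1 by 1.41 ± 0.17-fold. The largest step between neighbours, 5.71 ± 1.04-fold, separated Bcl2l1 from Bcl2l11, so that 5 members formed an abundant set and 3 members a low one. Mcl1 alone accounted for 50.1% of the TPM of all 8 members, whereas Bcl2l11, Bcl2 and Bbc3 accounted for 1.08%, 0.729% and 0.668%.

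None of the 8 members differed between the genotypes at an adjusted p of 0.05. The members were compared by limma on log2(TPM + 1) with Benjamini-Hochberg adjustment over all 11681 genes, of which 1 gene (0.00856%) passed, the VH gene Ighv1-82, at 89.7 and 81.7 TPM in the Δ890 libraries and 333, 453 and 318 TPM in the P4V libraries (adjusted p = 0.048). No gene passed with a pseudocount of 0.1 or 5, after rescaling without immunoglobulin genes, without the variance trend, without the first Δ890 library or without the first P4V library. No member had an unadjusted p under 0.05, which 522 of all genes had (4.47%), although Mcl1, Bbc3 and Bmf each fell below it when 1 P4V library was left out. For Mcl1, the difference was -0.18 ± 0.09 (log2, SE), with a 95% interval from -0.40 to 0.03 (limma, p = 0.076, adjusted p = 0.89). On the scale of TPM + 1, the P4V level of Mcl1 was thus 0.88 times the Δ890 level, with an interval from 0.76 to 1.02. Mcl1 was 1 of 8 members whose P4V libraries all lay below both Δ890 libraries, as was the case for 16.2% of all genes, and no member had all P4V libraries above, as had 6.94% of all genes.

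For Bbc3, the difference was 0.24 ± 0.14 (log2, SE), with a 95% interval from -0.10 to 0.59 (limma, adjusted p = 0.89). It was 0.37 without the second P4V library and 0.15 without the third. The differences of the other BH3-only genes were -0.14 ± 0.11 for Bmf and -0.09 ± 0.10 for Bcl2l11. Bmf was at -0.06 without the second P4V library and at -0.23 without the third, and Bcl2l11 was at -0.02 without the third. Those of Bcl2l1 and Bcl2 were 0.06 ± 0.12 and -0.03 ± 0.18. The effector genes had the narrowest intervals, from -0.11 to 0.20 for Bak1 and from -0.12 to 0.19 for Bax, so that changes of either gene beyond 0.919-fold and 1.15-fold lie outside them. The interval of Bcl2 was the widest and ran from 0.72-fold to 1.32-fold. Of the 8 estimates, 4 were above 0 and 4 below, and their median was 0.0017, compared with -0.03 over all genes tested. Without the first Δ890 library, the estimate of Bcl2 turned to 0.23 and that of Bcl2l1 to -0.10, and both signs also turned without the third P4V library (0.05 and -0.0088).

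**Figure D2:**
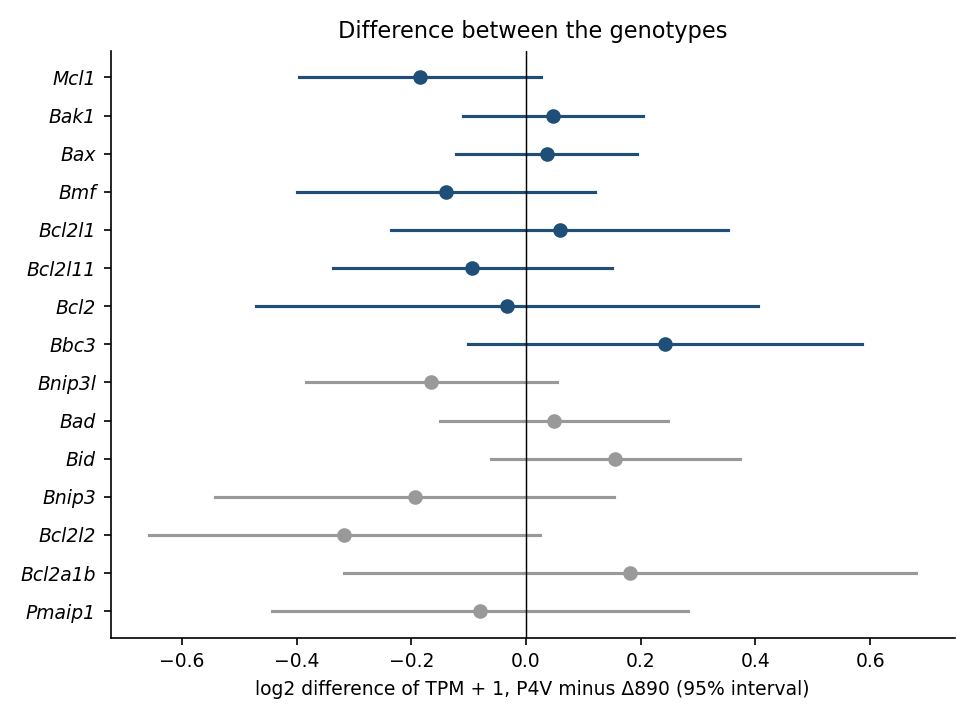
Log2 difference of TPM + 1 (P4V minus Δ890) for the 8 members (blue, in order of level) and for the 7 other family genes that were tested (grey), where points are limma estimates and lines are 95% intervals. Every interval includes 0, and that of Mcl1 reaches from -0.40 to 0.03.

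As the balance of the proteins depends on their relative amounts, 12 ratios between the members were computed in each library. With 2 against 3 libraries, the smallest two-sided p of an exact rank-sum test is 0.2. The ratios are given as a description, and no test was run on them. The ratio of Bcl2l11 to Mcl1 was the most uniform, with a coefficient of variation of 3.31% over the 5 libraries. It was 0.0210 and 0.0205 in the Δ890 libraries and 0.0221, 0.0220 and 0.0219 in the P4V libraries. The P4V libraries lay above the Δ890 libraries by 1.06-fold, while the counting error of Bcl2l11 alone was 3.08%. The ratio of Bax to Bak1 was similarly uniform, at 0.747 and 0.685 in the Δ890 libraries and at 0.703, 0.701 and 0.725 in the P4V libraries.

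The other ratios that contain Mcl1 in the denominator varied more. Bak1 to Mcl1 was 0.331 and 0.369 in the Δ890 libraries and 0.393, 0.379 and 0.465 in the P4V libraries. Bbc3 to Mcl1 was 0.0103 and 0.0116 in the Δ890 libraries and 0.0150, 0.0119 and 0.0190 in the P4V libraries. In both cases, the groups did not overlap, but the second P4V library came close to the higher of the Δ890 libraries.

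The summed effectors relative to the summed antiapoptotic members were at 0.520 and 0.548 in the Δ890 libraries and at 0.595, 0.565 and 0.685 in the P4V libraries, again without overlap. The mean was 0.534 ± 0.020 (SD, n = 2) for Δ890 and 0.615 ± 0.062 (SD, n = 3) for P4V. In total, 4 of the 12 ratios did not overlap between the groups, and all 4 contain Mcl1, so that they are not separate observations. Mcl1 to Bcl2, which also contains Mcl1, overlapped, at 61.9 and 88.0 in the Δ890 libraries and at 59.7, 72.4 and 67.9 in the P4V libraries. The summed BH3-only members relative to the antiapoptotic members overlapped, at 0.168 and 0.185 in the Δ890 libraries and at 0.174, 0.159 and 0.219 in the P4V libraries.

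The ratio of Bcl2 to Bcl2l1 was the least uniform of the 12, with a coefficient of variation of 29.1%. It was 0.169 and 0.0911 in the Δ890 libraries and 0.154, 0.109 and 0.0934 in the P4V libraries. Both groups spanned high and low values. The first library of each group was high and the others were lower.

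**Figure D3:**
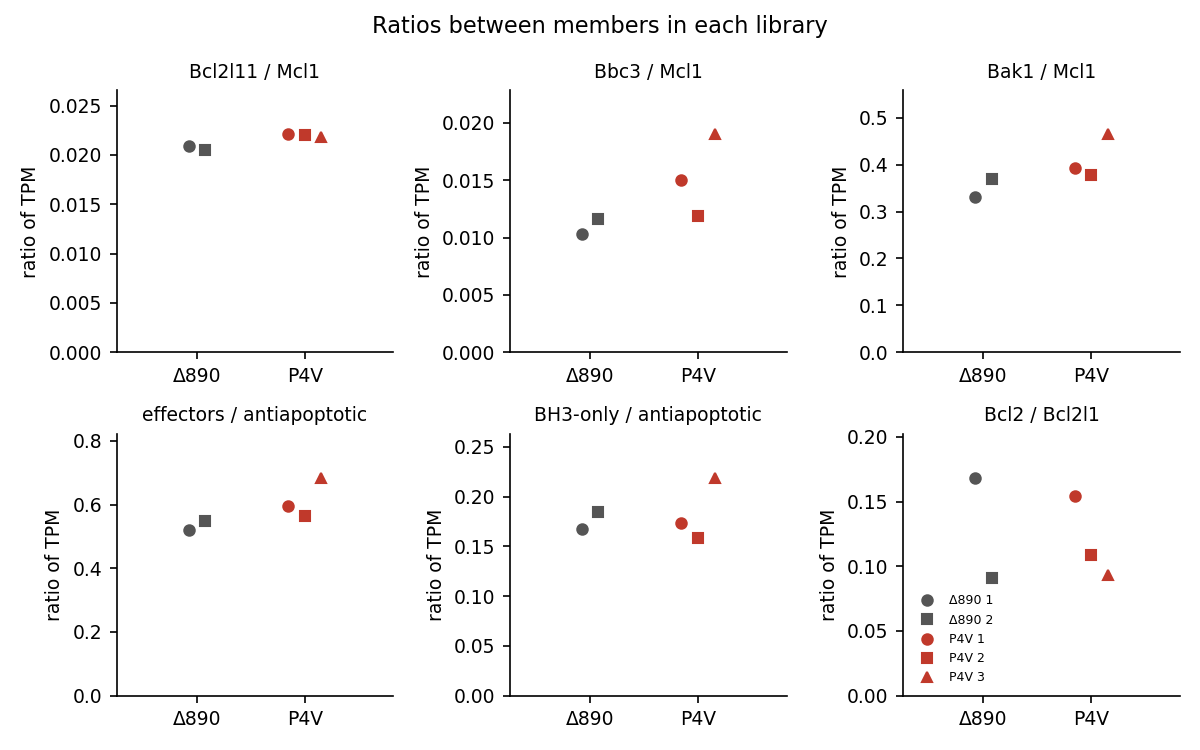
Ratios of TPM between members or summed classes, with a point for each library (grey, Δ890; red, P4V) and a linear axis from 0 in every panel. The ratio of Bcl2l11 to Mcl1 stays between 0.0205 and 0.0221, whereas that of Bcl2 to Bcl2l1 runs from 0.0911 to 0.169 in the Δ890 libraries and from 0.0934 to 0.154 in the P4V libraries.

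Of 14 other family genes listed, 7 reached a mean level of 1 TPM. Bad and Bid, further BH3-only genes, were at 52.6 to 61.4 TPM and 42.7 to 53.8 TPM, and Bnip3l, a mitophagy receptor, was at 52.3 to 65.5 TPM. Bad, Bid and Bnip3l thus had levels between those of Bcl2l1 and Bcl2l11. Noxa (Pmaip1), which binds Mcl-1, was at 1.27 to 1.80 TPM. The antiapoptotic genes outside the 8 members were low, with 2.25 to 3.82 TPM for Bcl2l2 (Bcl-w) and 1.22 to 2.50 TPM for Bcl2a1b, whose reads cannot be assigned with certainty among its near-identical paralogs. For Bcl2l2, all P4V libraries (2.95, 2.71 and 2.25 TPM) lay below both Δ890 libraries (3.82 and 3.23 TPM). This was the case for 16.2% of all genes. Bcl2l10 is listed at 0 in all libraries, and the effector Bok was at 0.174 to 1.39 TPM.

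The pathway around the members was followed through 46 genes, namely the 14 other family genes, 13 genes of the apoptosome, caspases and their inhibitors, 4 regulators of Mcl-1 turnover, 2 dynein light chains that hold Bim and Bmf, and 13 upstream regulators. Of these, 39 were tested and none passed the adjusted p of 0.05 or an unadjusted p of 0.05 in either direction. Their estimates ranged from -0.32 for Bcl2l2 to 0.34 for Cdkn1a, a target of p53. The median was -0.03, as for all genes. All P4V libraries lay below both Δ890 libraries for 7 of the 39 and above for 2, near the shares of all genes with these patterns (16.2% and 6.94%).

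Among the apoptosome and caspase genes, the highest was Birc3 (cIAP2), at a mean of 127 TPM in Δ890 and 117 TPM in P4V cells, without overlap and with an estimate of -0.12. Birc2 (cIAP1) and Htra2 also lay lower without overlap (estimates of -0.18 and -0.09), and Cycs, the gene of cytochrome c, lay higher (0.12). With 3 of 13 genes lower and 1 higher, this list was also near the 16.2% and 6.94% of all genes. The 4 regulators of Mcl-1 turnover, the ubiquitin ligase genes Huwe1, Fbxw7 and Btrc and the deubiquitinase gene Usp9x, had overlapping groups and estimates from -0.16 to -0.11. The light chain gene Dynll1 had a mean of 189 TPM in Δ890 and 209 TPM in P4V cells, with overlap.

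Of the upstream regulators, Tnfrsf13c, the receptor of the survival factor BAFF, was the highest (means of 1191 and 1159 TPM in Δ890 and P4V cells) and Akt1 came next (376 and 365 TPM). Foxo1, one of the FoxO factors that can activate Bcl2l11, was at 202 and 183 TPM. Akt1, Foxo1 and Mdm2 lay lower in P4V cells without overlap, with estimates from -0.15 to -0.04, and Nfkb1 lay higher, with an estimate of 0.04. None of these 13 genes passed the test, and 3 lower and 1 higher are again near the shares of all genes.

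Other transcripts also varied between the libraries. The third P4V library, with the lowest Mcl1 level, had the highest myeloid sum, at 5869 TPM, compared with 3014 and 2387 TPM in the Δ890 libraries and 1861 and 2947 TPM in the other P4V libraries. The first P4V library had the lowest myeloid sum, and its Mcl1 level (710 TPM) was also below both Δ890 libraries. The Δ890 library with the most Mcl1 (777 TPM) had a myeloid sum of 3014 TPM. The defining myeloid genes S100a8 and S100a9 were at 1752 and 3152 TPM in this library, and no myeloid gene found was at 0 in any library. Without the third P4V library, the estimate of Mcl1 was -0.11, and it lay between -0.23 and -0.11 when each library was left out in turn. The part of myeloid RNA in the level of Mcl1 was not tested.

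The sum of 8 early-response genes, which are rapidly induced by handling of cells and by receptor signalling, was 796 and 727 TPM in the Δ890 libraries and 872, 941 and 1182 TPM in the P4V libraries. It did not overlap between the groups and was highest in the library with the least Mcl1. Of the 7 early-response genes tested, 5 lay higher in all P4V libraries (Fos, Fosb, Jun, Junb and Dusp1), compared with 6.94% of all genes. By limma, 4 of the 7 had an unadjusted p under 0.05 and none passed the adjusted p of 0.05. Fosb, at 7.89 and 6.99 TPM in the Δ890 libraries and 14.5, 21.9 and 28.7 TPM in the P4V libraries, had an estimate of 1.38. Fos was at 78.5 and 65.4 TPM in the Δ890 libraries and at 110, 148 and 126 TPM in the P4V libraries. The part of this difference in the level of Mcl1 was not tested, and handling and genotype cannot be told apart.

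Bcl2 was highest in the libraries with the most transcripts of mature B cells. The sum of Ighd, Fcer2a (CD23), Cr2 (CD21) and Ccr7 was 655 and 446 TPM in the Δ890 libraries and 518, 477 and 425 TPM in the P4V libraries, although cells with surface IgD were gated out. The first library of each group thus had the most mature B cell transcripts, the most Bcl2 and the least Bcl2l1 of its group. Fcer2a alone was at 107 and 78.6 TPM in the Δ890 libraries and at 109, 98.1 and 79.8 TPM in the P4V libraries. Whether this variation sets the level of Bcl2 was not tested. Bmf was lowest in the second P4V library (102 TPM), which had the highest sums of pro- and pre-B cell genes (189 TPM) and of 5 proliferation genes (177 TPM, compared with 99.3 to 132 TPM in the others), and this was likewise not tested. All 5 proliferation genes had estimates above 0 (0.16 to 0.43), and none passed the adjusted p of 0.05. Of the 5, 1 (Birc5) lay higher in all P4V libraries, compared with 6.94% of all genes.

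**Figure D4:**
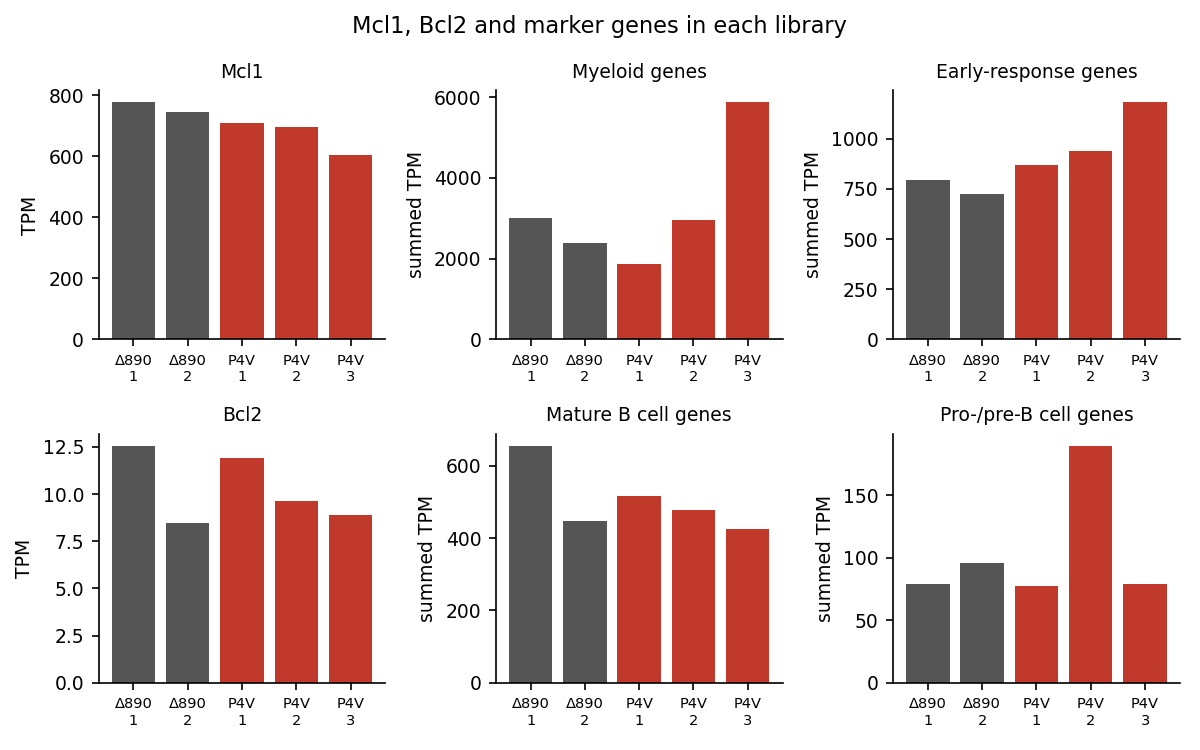
TPM of Mcl1 and Bcl2 (left panels) and summed TPM of marker genes (middle and right panels) in each library as bars from 0 (grey, Δ890; red, P4V). The third P4V library has the least Mcl1 (604 TPM) and the highest myeloid and early-response sums (5869 and 1182 TPM), and Bcl2 is highest in the Δ890 library with the largest mature B cell sum (655 TPM).

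Genes with the most similar profile were identified by the root-mean-square difference of log2(TPM + 1) over the 5 libraries, a measure that reflects the level as well as the variation. For Mcl1, they were Siglecg (a difference of 0.061), which codes for an inhibitory receptor of B cells, and Fmnl1 (0.091). For Bcl2l1, they were Bccip and Snw1 (0.045 and 0.060), for Bcl2 Rab30 and Cyfip1 (0.11 and 0.11), and for Bcl2l11 Tulp4 and Tprn (0.043 and 0.044). Bmf was closest to Fuca1 and Csrnp1 (0.073 and 0.074) and Bbc3 to Abcb6 and Pla2g6 (0.081 and 0.11). For Bax, they were Itgb2 and Ier5 (0.035 and 0.041), and for Bak1 Ewsr1 and Rbm42 (0.027 and 0.038).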

How the data were processed

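mRNA of sorted immature B cells was sequenced in 5 libraries. The authors removed ribosomal reads, aligned the rest with TopHat, removed duplicates, counted unique reads per gene with featureCounts (version 1.5.0 per the labels) and deposited TPM values. The genome build of this alignment is not given in the sources used here. Removal of duplicates can lower the TPM of abundant genes. Of 24732 genes, 4 without a value in at least 1 library were left out.

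Reads were recovered as the smallest whole numbers that fit the TPM values of all libraries (99.99% of values within 0.01 read) and served for depth and counting error, which cover counting only. All genes whose mean level reached 1 TPM entered the test, which was limma on log2(TPM + 1) (version 3.58.1 in R 4.3.3, empirical Bayes with trend, two-sided, Benjamini-Hochberg adjustment), after a check on simulated data. The design was 3 P4V against 2 Δ890 libraries, without covariates. A log2 difference on this scale understates that of low genes. The samples are independent experiments per the methods, but no animals are named. Fold ratios of TPM were computed within each library.

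The members and lists were chosen with earlier results of these data known. All 8 members are named, as are in each pathway list (not the marker lists) genes past the threshold, then those without overlap, then the highest, and the 2 closest genes per member. Some genes are not reported here and were left out of the lists. Of the 46 pathway genes, 8 are listed under names with a suffix whose meaning is not given in the sources used here, likewise Cyfip1, Bccip, Snw1, Ighm, Ighd, Alas2, Hbb-b1, Hbb-bs and Xist. The 48 VDJ-seq files were not used here.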

Additional observations from a re-analysis of the deposited data

How the results depend on the processing

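No member passed the adjusted p of 0.05 under any of the 13 alternatives tried, where adjusted p-values (limma) of members ran from 0.68 to 1. Unadjusted p-values of limma under 0.05 arose for Mcl1 without the first P4V library (-0.23, p = 0.043), Bbc3 without the second (0.37, p = 0.013) and Bmf without the third (-0.23, p = 0.029). Leaving out libraries moved Bax, at 0.04 in all libraries, between 0.0043 and 0.07. Of 104 member differences recomputed, 99 kept their sign and 5 reversed, all when 1 library was left out. Without the first Δ890 library, Bcl2 was at 0.23, Bcl2l1 at -0.10 and Bak1 at -0.00057 (log2), and without the third P4V library, Bcl2 was at 0.05 and Bcl2l1 at -0.0088. At the other end, without the second Δ890 library, Bcl2 was at -0.29, Bcl2l1 at 0.21 and Bak1 at 0.10. The median difference of the members lay between -0.05 and 0.03, and the ratio of summed BH3-only to antiapoptotic members between P4V and Δ890 cells, 1.04 in all libraries, lay between 0.943 and 1.11 when each library was left out. The number of genes called over the whole table, 1, was 0 with a pseudocount of 0.1 or 5, after rescaling without immunoglobulin genes and without the variance trend, and 3 on recovered reads scaled to the library total, an alternative chosen after seeing the data. It was 66 with no filter on low values, and all 66 had a mean below 1 TPM. It lay between 0 and 4 when each library was left out, and 0 without the first Δ890 or the first P4V library. The cause of these shifts was not tested. No paired analysis was possible because the labels of these libraries carry no replicate number, and the numbers used here only follow the order of deposition. Precision is limited by the number of libraries and, for members with few reads, also by depth, as the counting error of Bbc3 was 6.67% of its level and the variation within groups 13.8%.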
